A study of Mus musculus with 17 samples.

Results

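The 10 genes described here are markers of the alveolar type 1 (AT1) epithelial cell. They are the rows of the count table with the symbols Ager, Hopx, Aqp5, Pdpn, Rtkn2, Clic5, Akap5, Emp2, Igfbp2 and Vegfa, 10 of 45777 rows in all, and all 10 were among the 22052 genes tested. The lungs came from male C57BL/6 mice whose left lung had received 1 focal dose of 65 or 75 Gy, or from non-irradiated mice of the same kind, which served as controls. Lesions of the irradiated tissue were collected at 2 weeks, named the inflammation stage, or at 6 weeks, named the fibrosis stage. The RNA was that of the tissue as a whole. There were 3 libraries each of control, 65 Gy and 75 Gy at 2 weeks and of control and 75 Gy at 6 weeks, and 2 libraries of 65 Gy at 6 weeks. The mice were 6 weeks old when supplied.

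AT1 cells are thin, flat cells that cover most of the surface across which the lung exchanges gas. They share a basement membrane with the capillaries beneath them, and they are renewed by alveolar type 2 (AT2) cells, which make surfactant and pass through a transitional state with high keratins as they flatten. Loss of AT1 cells and a stalled transition are well-known features of injured and fibrotic lungs. In these bulk libraries, fewer cells of a type and less RNA per cell cannot be told apart.

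In controls the markers were among the most abundant transcripts of the lung, so the label of the tissue held. Ager, the receptor for advanced glycation end products, had 1845 ± 149 CPM (counts relative to the library size, which was scaled by TMM; SD, n = 6). Of all genes in the count table, 99.9% had a lower mean control level. The lowest count of any of the 10 in any library was 5554, for Pdpn, so counting error was small beside the spread between libraries. Per kilobase of exon, which allows levels of different genes to be compared, the control level of Ager was 862 ± 69.7 CPM per kb. Hopx followed at 489 ± 22.4, Vegfa at 299 ± 23.7, Emp2 at 183 ± 18.6 and Clic5 at 158 ± 17.9 CPM per kb. The level per length of Aqp5 was 113 ± 6.67 and that of Igfbp2 113 ± 17.7 CPM per kb, and these did not differ beyond their spread. Akap5 at 97.0 ± 3.67 lay within the range of Igfbp2, from 82.6 to 137 CPM per kb. Pdpn, at 66.2 ± 4.09, and Rtkn2, at 53.4 ± 7.29 CPM per kb, had the lowest levels, and their ranges touched (60.4 to 72.1 and 39.3 to 60.4). The ranges of Emp2 and Clic5 also overlapped.

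Most of the 10 genes were lower in irradiated lung, but not all. The levels of Vegfa, Hopx, Clic5, Emp2, Akap5 and Aqp5 in each of the 11 irradiated libraries were below those in all 6 controls, as they were for 4.50% of all genes tested. Rtkn2 was below the lowest control in 9 of 11 libraries and Ager in 6 of 11. Pdpn was above the highest control in 10 of 11, and Igfbp2 lay on both sides of the controls.

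**Figure D1:**
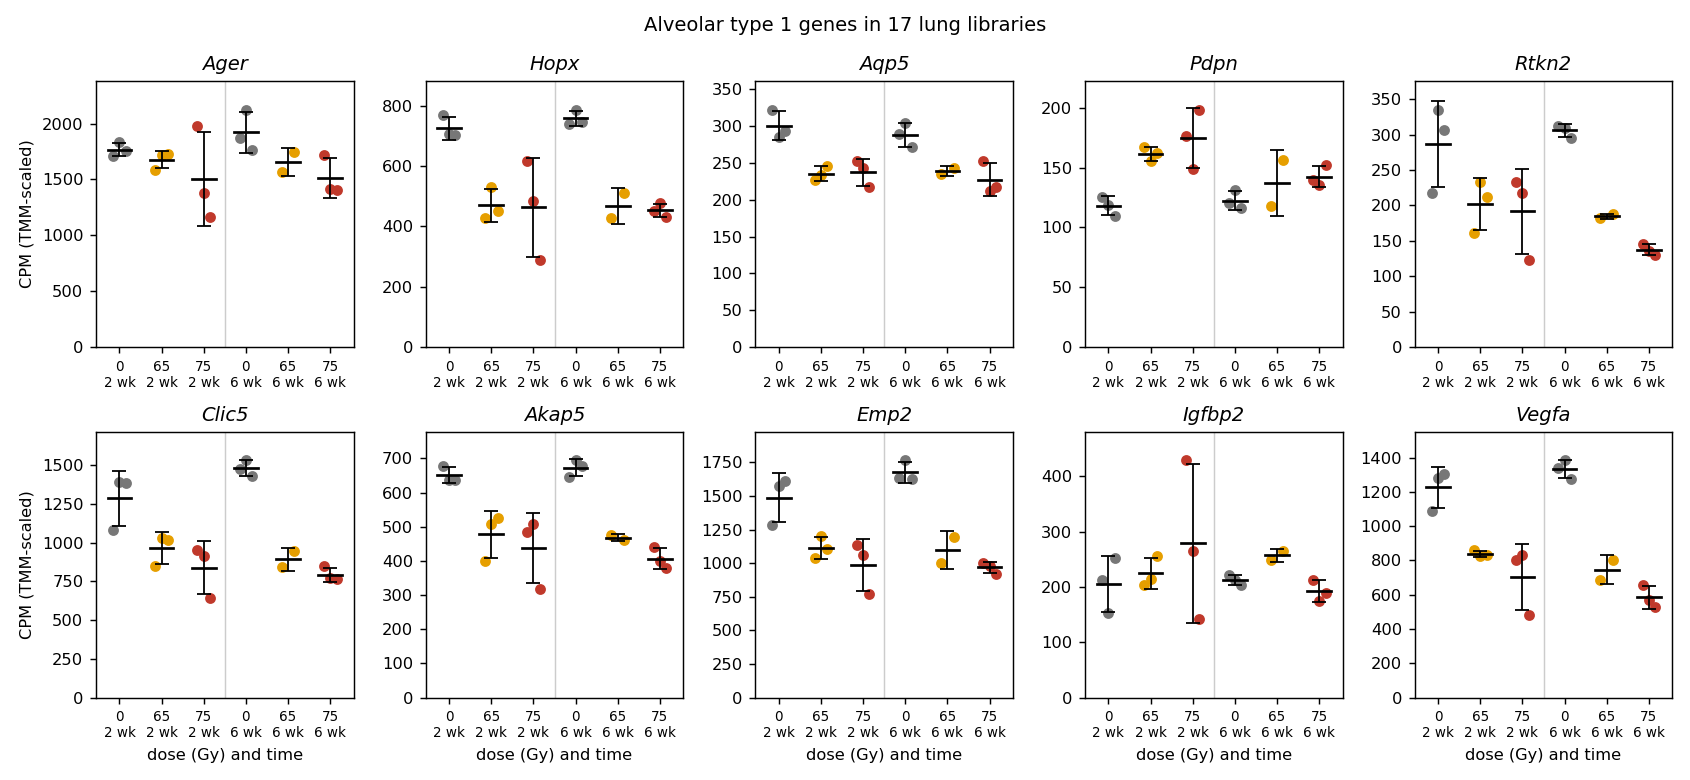
The level of each AT1 gene in CPM (vertical axis, from 0) in every library, by dose and time, with non-irradiated lungs at dose 0. Points are libraries, horizontal bars are group means and error bars are SD. The 11 irradiated libraries are below all 6 controls for 6 of the 10 genes (4.50% of all genes tested), and Pdpn lies above the highest control in 10 of 11.

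A gene passed the test when its adjusted p (quasi-likelihood F test of edgeR, adjusted by Benjamini-Hochberg over all genes tested) was no more than 0.05. Differentially expressed genes (DEGs) passed the test and also had a log2 fold change of 1 or more in either direction. Of the 10 genes 7 were lower and 0 higher at 75 Gy and 6 weeks, against 18.0% of all genes lower and 18.0% higher, and Rtkn2 and Vegfa were DEGs (3.13% of all genes were DEGs with a lower level). The same dose at 2 weeks left 6 lower, against 10.5% of all genes, and 1, Pdpn, higher, against 11.8%. After 65 Gy, 6 were lower and 0 higher at 6 weeks, against 7.01% lower and 7.66% higher, and 3 were lower at 2 weeks, against 4.29%, with Pdpn higher, against 6.70%. None of the 10 was a DEG in the other 3 comparisons, where DEGs with a lower level were 2.07% of all genes at 75 Gy and 2 weeks, 0.880% at 65 Gy and 2 weeks and 0.943% at 65 Gy and 6 weeks. The median log2 fold change of the 10 genes was -0.58 at 75 Gy and 2 weeks, -0.73 at 75 Gy and 6 weeks, -0.41 at 65 Gy and 2 weeks and -0.57 at 65 Gy and 6 weeks, while that of all genes tested was 0.00, 0.04, -0.01 and 0.01. Both doses of a time were set against the same controls, so their counts are not independent. The groups did not overlap, with the irradiated libraries lower, for 8 of the 10 genes in both comparisons at 6 weeks (27.7% of all genes at 75 Gy and 28.1% at 65 Gy) and for 6 of the 10 in both at 2 weeks (14.8% at 75 Gy and 13.5% at 65 Gy).

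The counts at 2 weeks and those at 65 Gy moved with the libraries in the fit. When only the libraries of the groups compared were fitted, 0 of the 10 genes passed at 75 Gy and 2 weeks. That fit called 1150 genes in all, against 4922 in the main fit. At 75 Gy and 6 weeks 9 of the 10 passed by such a fit. It called 9883 genes in all, against 7935 in the main fit. Library 3134 of 75 Gy at 2 weeks stood apart, with the lowest level in its group for 9 of the 10 genes. Its mean over the 10 genes was 8.40 log2 CPM, against 8.89 and 9.09 in the other libraries of its group. The mean over the 10 genes was 9.16 ± 0.06 (SD, n = 3) in controls of 2 weeks, 8.89 ± 0.10 (n = 3) at 65 Gy and 2 weeks, 8.79 ± 0.35 (n = 3) at 75 Gy and 2 weeks, 9.26 ± 0.06 (n = 3) in controls of 6 weeks, 8.84 ± 0.12 (n = 2) at 65 Gy and 6 weeks and 8.64 ± 0.09 (n = 3) at 75 Gy and 6 weeks. Without library 3134, 5 were lower and 2 higher at 75 Gy and 2 weeks, and 7 were lower and 1 higher at 65 Gy and 2 weeks. The genes called in all were then 3290 and 3479, against 4922 and 2422 in the main fit. With 1 library left out the count at 65 Gy and 2 weeks ranged from 0 (without library 3129, 1241 genes called in all) to 8. At 65 Gy and 6 weeks, with both 65 Gy libraries kept, it ranged from 2 (without library 3136) to 6. The genes called in all were 1827 without library 3136, against 3234 in the main fit.

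**Figure D2:**
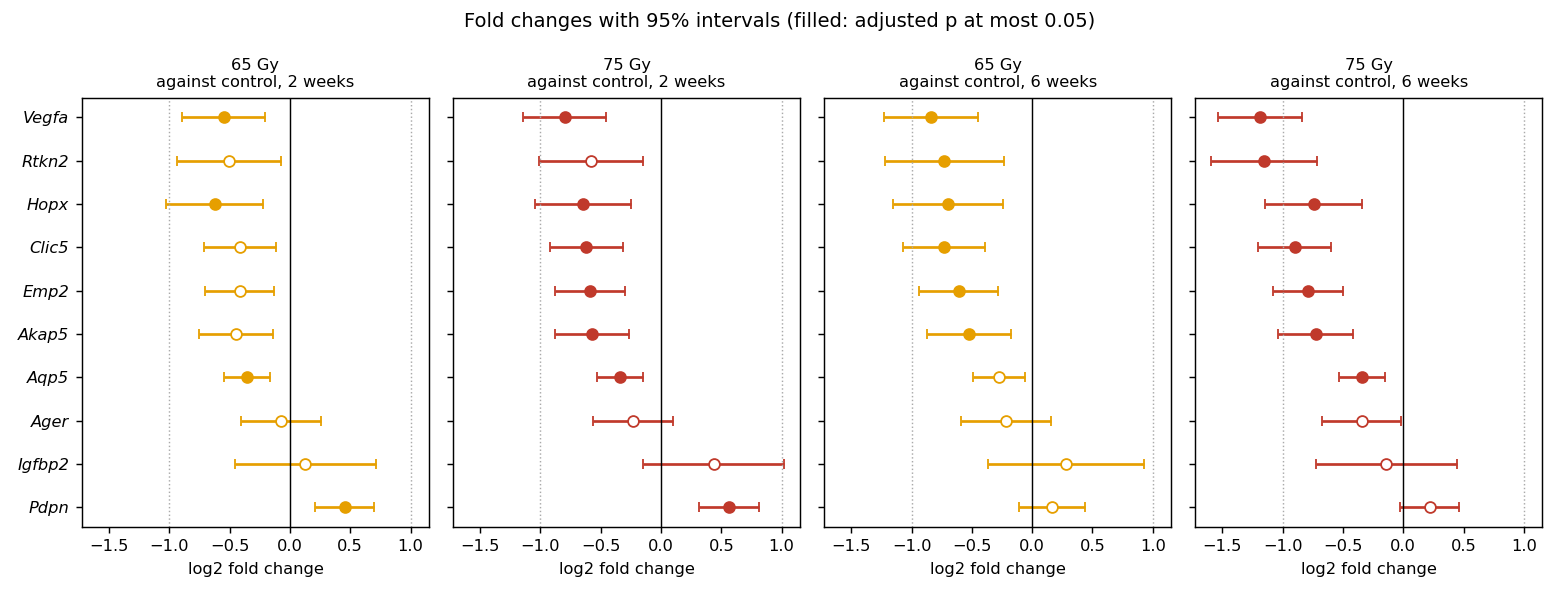
Log2 fold change of each AT1 gene against the controls of the same time (horizontal axis), with its 95% interval, for both doses at 2 and 6 weeks. Filled points passed the test at an adjusted p of at most 0.05, open points did not, and dotted lines mark the DEG limit. Only Vegfa and Rtkn2 at 75 Gy and 6 weeks have a point beyond it.

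Vegfa encodes vascular endothelial growth factor A, through which AT1 cells sustain the capillaries of the alveolus. Its level was 1089, 1284 and 1306 CPM in controls of 2 weeks and 1338, 1385 and 1278 CPM in those of 6 weeks. It was 859, 825 and 833 CPM at 65 Gy and 800, 830 and 484 CPM at 75 Gy at 2 weeks. At 6 weeks it was 685 and 805 CPM at 65 Gy and 660, 571 and 528 CPM at 75 Gy. Irradiated and control libraries did not overlap at either time, and the lowest value of all was that of library 3134. The log2 fold change at 75 Gy was -0.80 ± 0.16 (SE) at 2 weeks (adjusted p = 0.00275) and -1.19 ± 0.16 at 6 weeks (adjusted p = 0.000111), the smallest p of the 10 genes in both. At 65 Gy it was -0.55 ± 0.16 (adjusted p = 0.0409) and -0.84 ± 0.18 (adjusted p = 0.00804). Without library 3138 the adjusted p at 65 Gy and 6 weeks was 0.114, and at 65 Gy and 2 weeks leaving out any of 11 libraries ended the call, with adjusted p up to 0.116.

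Rtkn2 encodes rhotekin 2. Its level was 218, 335 and 306 CPM in controls of 2 weeks and 312, 310 and 296 CPM in those of 6 weeks. At 2 weeks it was 161, 233 and 211 CPM at 65 Gy and 234, 218 and 123 CPM at 75 Gy, so that irradiated libraries overlapped the lowest control. At 6 weeks it was 182 and 187 CPM at 65 Gy and 146, 135 and 131 CPM at 75 Gy, without overlap. The change at 6 weeks was a log2 fold change of -1.16 ± 0.21 (SE) at 75 Gy (adjusted p = 0.000675) and of -0.73 ± 0.23 at 65 Gy (adjusted p = 0.0474). The latter call was lost without any of 11 libraries, with adjusted p up to 0.221. At 2 weeks the log2 fold change was -0.58 ± 0.20 at 75 Gy (adjusted p = 0.0525) and -0.51 ± 0.20 at 65 Gy (adjusted p = 0.128). Without library 3126, 3129, 3132 or 3133 the value at 75 Gy passed, with adjusted p as low as 0.0183, and without library 3134 that at 65 Gy passed with an adjusted p of 0.0262.

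Clic5 and Emp2 encode membrane-associated proteins, chloride intracellular channel 5, which binds the cortical cytoskeleton, and epithelial membrane protein 2, a small protein of the PMP22 family that crosses the membrane several times. Clic5 measured 1083, 1393 and 1383 CPM in controls of 2 weeks and 1476, 1531 and 1432 CPM in those of 6 weeks. It measured 849, 1031 and 1019 CPM at 65 Gy and 955, 916 and 644 CPM at 75 Gy at 2 weeks, and 840 and 942 CPM at 65 Gy and 846, 768 and 764 CPM at 75 Gy at 6 weeks. At each time the controls lay above both irradiated groups. At 75 Gy Clic5 fell by 0.62 ± 0.14 (SE) on the log2 scale at 2 weeks (adjusted p = 0.00593) and by 0.90 ± 0.14 at 6 weeks (adjusted p = 0.000298). At 65 Gy it fell by 0.73 ± 0.16 at 6 weeks (adjusted p = 0.00825, and 0.105 without library 3138). The log2 fold change at 65 Gy and 2 weeks was -0.41 ± 0.14 (adjusted p = 0.0746).

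Emp2 behaved much as Clic5 did. It measured 1284, 1571 and 1612 CPM in controls of 2 weeks, 1040, 1201 and 1106 CPM at 65 Gy and 1137, 1060 and 769 CPM at 75 Gy. At 6 weeks it measured 1635, 1767 and 1629 CPM in controls, 1001 and 1198 CPM at 65 Gy and 1004, 980 and 923 CPM at 75 Gy, again without overlap. Its log2 fold change was -0.59 ± 0.14 (SE; adjusted p = 0.00590) and -0.79 ± 0.14 (adjusted p = 0.000534) at 75 Gy, at 2 and 6 weeks, and -0.61 ± 0.15 (adjusted p = 0.0165) at 65 Gy and 6 weeks. The last was lost without library 3136 or 3138, with adjusted p up to 0.185. The value at 65 Gy and 2 weeks was -0.42 ± 0.13 (adjusted p = 0.0615). DESeq2 called Clic5, Emp2 and Akap5 in that comparison, with adjusted p of 0.0312, 0.0206 and 0.0253, and leaving out library 3134 also brought these 3 past the test.

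Hopx, a small homeodomain protein that does not itself bind DNA, and Akap5, which anchors protein kinase A near the plasma membrane, measured lower in every irradiated group. Hopx measured 769, 706 and 702 CPM in controls of 2 weeks and 741, 787 and 748 CPM in those of 6 weeks. It measured 428, 532 and 452 CPM at 65 Gy and 615, 485 and 289 CPM at 75 Gy at 2 weeks, and 427 and 510 CPM at 65 Gy and 451, 477 and 433 CPM at 75 Gy at 6 weeks. No irradiated library reached a control, and the 75 Gy group of 2 weeks was spread most widely. Hopx fell in all 4 comparisons, by 0.65 ± 0.19 (SE) on the log2 scale at 75 Gy and 2 weeks (adjusted p = 0.0221), 0.74 ± 0.19 at 75 Gy and 6 weeks (adjusted p = 0.00695), 0.62 ± 0.19 at 65 Gy and 2 weeks (adjusted p = 0.0453) and 0.70 ± 0.21 at 65 Gy and 6 weeks (adjusted p = 0.0410). The first had an adjusted p of 0.0548 without library 3126 and a log2 fold change of -0.40 without library 3134. Both calls at 65 Gy were near the threshold, since leaving out any of 15 libraries at 2 weeks (adjusted p up to 0.157) or any of 9 at 6 weeks (up to 0.291) ended them.

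Akap5 measured 637 to 679 CPM in controls of 2 weeks and 645 to 695 CPM in those of 6 weeks. It measured 399, 509 and 525 CPM at 65 Gy and 484, 508 and 319 CPM at 75 Gy at 2 weeks, and 475 and 461 CPM at 65 Gy and 440, 400.5 and 380 CPM at 75 Gy at 6 weeks. None of these ranges met those of the controls. At 75 Gy it fell by 0.57 ± 0.14 (SE) at 2 weeks (adjusted p = 0.0105) and by 0.73 ± 0.15 at 6 weeks (adjusted p = 0.00155) on the log2 scale. The log2 fold change at 65 Gy was -0.45 ± 0.14 at 2 weeks (adjusted p = 0.0615) and -0.52 ± 0.16 at 6 weeks (adjusted p = 0.0445), and the second lost its call without any of 12 libraries (adjusted p up to 0.228).

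Aqp5, the water channel of the apical membrane, and Ager had the smallest differences among the genes that measured lower. Aqp5 lay at 323, 286 and 294 CPM in controls of 2 weeks and 289, 305 and 272 CPM in those of 6 weeks. It lay between 226 and 246 CPM at 65 Gy and between 217 and 253 CPM at 75 Gy at 2 weeks, and at 234 and 243 CPM at 65 Gy and between 211 and 253 CPM at 75 Gy at 6 weeks. All irradiated libraries were below all controls, but by a narrow margin. Its log2 fold change was -0.34 ± 0.09 (SE) at 75 Gy at both times (adjusted p = 0.0134 and 0.00801), -0.35 ± 0.09 at 65 Gy and 2 weeks (adjusted p = 0.0208) and -0.27 ± 0.10 at 65 Gy and 6 weeks (adjusted p = 0.0833, and 0.0260 when only those groups were fitted). At 75 Gy the call at 2 weeks was lost without library 3134 (adjusted p = 0.0558). That at 6 weeks was lost without library 3142 or 3143 (up to 0.0593). The call at 65 Gy and 2 weeks was lost without library 3126, 3129 or 3130 (up to 0.0831). Fitting only the groups compared also ended the calls at 2 weeks, with adjusted p of 0.168 (75 Gy) and 0.062 (65 Gy).

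Ager passed in none of the 4 comparisons. It measured 1713, 1831 and 1757 CPM in controls of 2 weeks, 1587, 1717 and 1727 CPM at 65 Gy and 1975, 1379 and 1160 CPM at 75 Gy. At 6 weeks it measured 1874, 2126 and 1767 CPM in controls, 1565 and 1746 CPM at 65 Gy and 1719, 1413 and 1407 CPM at 75 Gy. The 75 Gy group of 2 weeks held both the second highest and the lowest value of all 17 libraries. Its log2 fold change at 75 Gy was -0.23 (95% interval -0.56 to 0.10, adjusted p = 0.311) at 2 weeks and -0.35 (-0.68 to -0.02, adjusted p = 0.0944) at 6 weeks. At 65 Gy it was -0.08 (-0.41 to 0.25, adjusted p = 0.816) and -0.22 (-0.59 to 0.15, adjusted p = 0.445). The value at 75 Gy and 2 weeks rested on single libraries, with a log2 fold change of -0.48 (adjusted p = 0.0104) without library 3132 and of -0.08 (adjusted p = 0.771) without library 3134. It also passed at 75 Gy and 6 weeks when library 3132 or 3134 was left out or only those groups were fitted, with adjusted p as low as 0.0241.

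Pdpn went the other way. It encodes podoplanin, a mucin-like surface protein that is also made by lymphatic endothelium, some fibroblasts and activated macrophages. Its level was 126, 119 and 110 CPM in controls of 2 weeks, 167, 155 and 163 CPM at 65 Gy and 177, 148 and 199 CPM at 75 Gy. At 6 weeks it was 120, 131 and 116 CPM in controls, 118 and 157 CPM at 65 Gy and 140, 135 and 152 CPM at 75 Gy. At 2 weeks both doses lay wholly above the controls, as they did for 15.5% of all genes at 75 Gy and 15.9% at 65 Gy, and library 3134, the lowest of its group for the other 9 genes, had the highest Pdpn of all. Pdpn rose by 0.56 ± 0.12 (SE; adjusted p = 0.00305) at 75 Gy and by 0.45 ± 0.12 (adjusted p = 0.0214) at 65 Gy on the log2 scale at 2 weeks. The call at 65 Gy was lost without library 3127, 3128, 3129 or 3131 (adjusted p up to 0.0797). At 6 weeks the log2 fold change was 0.22 (95% interval -0.03 to 0.47, adjusted p = 0.153) at 75 Gy and 0.17 (-0.11 to 0.44, adjusted p = 0.426) at 65 Gy. When only the groups compared were fitted, Pdpn passed at 75 Gy and 6 weeks (adjusted p = 0.0353). By the same kind of fit Pdpn did not pass at 75 Gy and 2 weeks (adjusted p = 0.0621).

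Markers of the other cell types that make podoplanin also moved. At 75 Gy and 2 weeks 11.8% of all genes tested were higher and 10.5% lower. Of 6 macrophage markers 5 rose and 0 fell at 75 Gy and 2 weeks, with a summed level of 177 to 246 CPM in controls and 877 to 1676 CPM at 75 Gy. Of 6 markers of lymphatic endothelium 4 fell and 0 rose, from 494 to 680 CPM in sum to 176 to 421 CPM. Of 6 fibroblast markers 0 rose and 2 fell, and their sums overlapped. The part of these cells in the level of Pdpn was not tested.

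Igfbp2 encodes an insulin-like growth factor binding protein that marks fully mature AT1 cells. It measured 212, 152 and 253 CPM in controls of 2 weeks, 203, 215 and 257 CPM at 65 Gy and 429, 265 and 142 CPM at 75 Gy. At 6 weeks it measured 221, 212 and 203 CPM in controls, 249.5 and 266 CPM at 65 Gy and 213, 174 and 190 CPM at 75 Gy. The 75 Gy group of 2 weeks spanned the highest and the lowest value of all libraries. It passed in none of the 4 comparisons, with log2 fold changes of 0.44 (95% interval -0.15 to 1.02, adjusted p = 0.279) at 75 Gy and 2 weeks, -0.14 (-0.73 to 0.44, adjusted p = 0.720) at 75 Gy and 6 weeks, 0.13 (-0.46 to 0.71, adjusted p = 0.826) at 65 Gy and 2 weeks and 0.28 (-0.37 to 0.93, adjusted p = 0.584) at 65 Gy and 6 weeks. The first rested on single libraries, since it was 0.76 (adjusted p = 0.0191) without library 3134 and -0.02 without library 3132. Igfbp2 also passed at 65 Gy and 6 weeks when only those groups were fitted (adjusted p = 0.00974).

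The promoters of Hopx and Vegfa, which fell, and of Pdpn, which rose, are shown because the members moved in opposite directions. Each is the RefSeq window of GRCm38.p6 from 250 bases before to 50 bases after a start site, written 5′ to 3′ on the strand of the gene, here the minus strand. Capitals mark letters of the motifs searched.
Hopx, chr5:77095218-77095517: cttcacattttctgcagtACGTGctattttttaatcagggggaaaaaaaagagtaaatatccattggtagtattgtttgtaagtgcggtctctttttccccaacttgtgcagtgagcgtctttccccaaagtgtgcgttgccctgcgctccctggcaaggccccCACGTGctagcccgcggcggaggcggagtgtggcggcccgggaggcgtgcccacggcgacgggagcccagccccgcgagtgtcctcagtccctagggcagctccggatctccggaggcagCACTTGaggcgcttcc
Vegfa, chr17:46032328-46032627: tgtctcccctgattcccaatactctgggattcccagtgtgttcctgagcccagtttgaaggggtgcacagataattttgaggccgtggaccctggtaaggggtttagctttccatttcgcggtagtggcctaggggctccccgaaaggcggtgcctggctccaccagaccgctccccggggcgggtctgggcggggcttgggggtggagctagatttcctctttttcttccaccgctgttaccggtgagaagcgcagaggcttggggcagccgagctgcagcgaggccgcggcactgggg
Pdpn, chr4:143299515-143299814: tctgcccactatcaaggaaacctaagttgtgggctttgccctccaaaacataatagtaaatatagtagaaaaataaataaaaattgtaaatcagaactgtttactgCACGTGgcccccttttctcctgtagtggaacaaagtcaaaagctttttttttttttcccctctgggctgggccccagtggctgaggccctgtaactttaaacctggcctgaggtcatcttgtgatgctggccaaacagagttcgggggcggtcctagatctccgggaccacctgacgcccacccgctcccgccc
RefSeq held 12 windows for 9 of the 10 genes, and Rtkn2 had no entry. Both strands were searched for GGAATG, read by TEAD factors of the Hippo pathway, CACTTG, read by NKX2-1, and ACGTG, the core read by hypoxia-inducible factor (HIF). A further motif, TATAAA, was the TATA box. The palindrome CACGTG counts on both strands. Of the 12 windows 0 held GGAATG (14.7% of 32851 windows of the same length), 1 held CACTTG (13.6%), 6 held ACGTG (19.6%) and 0 held TATAAA (13.6%). CACTTG was found in the Hopx window shown, and ACGTG in windows of Hopx, Aqp5, Pdpn, Igfbp2 and Vegfa, both among genes that fell and in the one that rose. The Vegfa window shown held none of these motifs. The ACGTG of Vegfa lay in its other window, chr17:46025114-46025413. That window lies inside the gene, which spans 46016993 to 46032377. The Hopx window shown also lies inside its gene, which spans 77086986 to 77115123. Whether these windows act as promoters in the lung was not tested. These matches describe letters only.

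The AT1 genes did not fall in one proportion. Within a library the ratio of 2 genes does not depend on the scaling of libraries, so the other 9 were set against Ager, the most abundant. This comparison was chosen after the values were seen, and the 9 ratios share their denominator. The ratio of Vegfa to Ager lay between 0.636 and 0.743 in the 6 controls and between 0.375 and 0.602 in the 11 irradiated libraries. That of Hopx to Ager lay between 0.370 and 0.449 and between 0.249 and 0.352, and that of Pdpn to Ager between 0.0616 and 0.0734 and between 0.0753 and 0.171. The ranges of these 3 ratios did not overlap, while those of Rtkn2, Clic5, Akap5 and Emp2 to Ager did. The ratio of Rtkn2, for example, lay between 0.127 and 0.183 in controls and between 0.0848 and 0.158 in irradiated libraries. The log2 ratio in irradiated minus control libraries, averaged over the times, was -0.64 for Vegfa and -0.47 for Hopx (p = 0.000213 for both, the smallest that the two-sided exact permutation test within each time can give with 4704 arrangements, not adjusted). By the same exact test it was -0.54 for Rtkn2 (p = 0.000638), -0.44 for Clic5 (p = 0.000425), -0.38 for Emp2 (p = 0.000425), -0.35 for Akap5 (p = 0.000850) and 0.58 for Pdpn (p = 0.000425). For Aqp5 it was -0.10 (p = 0.194, exact permutation test), and for Igfbp2 0.37 (p = 0.0181, exact permutation test). The ratios of Vegfa, Hopx, Rtkn2, Clic5, Emp2, Akap5 and Pdpn kept a p of at most 0.015 in this exact test with either dose alone or without any one library. The p of Igfbp2 reached 0.0848 and that of Aqp5 ranged from 0.0250 to 0.775.

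**Figure D3:**
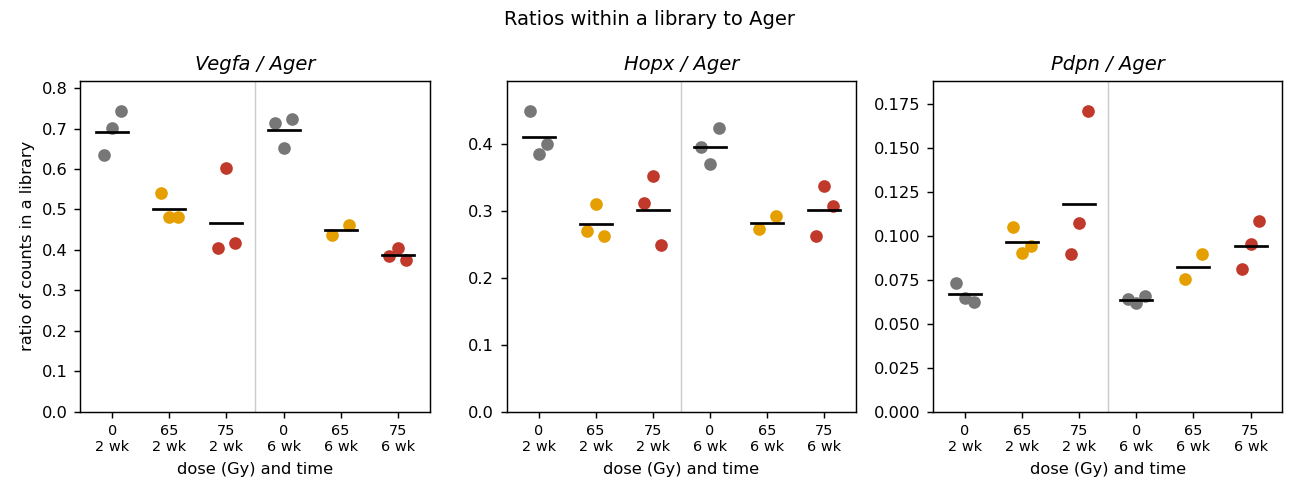
The ratio of Vegfa, Hopx and Pdpn to Ager in each library (vertical axes, from 0, each with its own range), by dose and time, with controls at dose 0. Points are libraries and bars are geometric means. Vegfa and Hopx are below all controls in the 11 irradiated libraries and Pdpn is above them.

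Dose and time were compared next, to see whether 65 Gy and 75 Gy, or the inflammation and fibrosis stages, differed in the AT1 genes. None of the 10 passed between the doses. By the quasi-likelihood test of edgeR 0 of the 22052 genes (0%) did at either time, while 7.12% at 2 weeks and 6.49% at 6 weeks had an unadjusted p under 0.05, and DESeq2 called 15 and 17 genes. At 6 weeks the 75 Gy libraries of Vegfa, Rtkn2, Akap5 and Igfbp2 all lay below those of 65 Gy (15.3% of all genes did). The log2 difference of 75 Gy minus 65 Gy at 6 weeks was -0.35 for Vegfa (95% interval -0.73 to 0.03) and -0.43 for Rtkn2 (-0.91 to 0.05), so a further loss of close to 2-fold at 75 Gy lay within the interval of Rtkn2. It was -0.05 for Hopx (-0.49 to 0.40) and -0.07 for Aqp5 (-0.29 to 0.14). At 2 weeks the intervals of all 10 held 0, from -0.18 to 0.20 for Aqp5 to -0.27 to 0.89 for Igfbp2.

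None of the 10 genes passed the interaction test, which asks whether the effect of a dose differed between the times. The values at 75 Gy, 6 weeks minus 2 weeks, were -0.58 for Rtkn2 (95% interval -1.19 to 0.04, adjusted p = 0.338), -0.39 for Vegfa (-0.87 to 0.10, adjusted p = 0.410), -0.34 for Pdpn (-0.69 to 0.00, adjusted p = 0.316) and -0.01 for Aqp5 (-0.28 to 0.26, adjusted p = 0.994). In this test 0.299% of all genes passed, and 0.0136% passed for 65 Gy. Between the controls of 6 and of 2 weeks none of the 10 passed, against 1.63% of all genes, and only Clic5 and Emp2 had control groups that did not overlap, higher at 6 weeks (12.4% of all genes did).

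Other genes of the AT1 cell followed in part. Of 20 further AT1 genes, 11 fell and 0 rose at 75 Gy and 6 weeks, 7 fell and 2 rose at 75 Gy and 2 weeks, 5 fell and 0 rose at 65 Gy and 6 weeks and 2 fell and 1 rose at 65 Gy and 2 weeks. Over all genes, 18.0%, 10.5%, 7.01% and 4.29% were lower in that order and 18.0%, 11.8%, 7.66% and 6.70% higher, and the counts of this and the other lists are to be read against these shares. The share of risers at 75 Gy and 2 weeks was near that of all genes. The median log2 fold change of the 20 genes was -0.41, -0.20, -0.34 and -0.12. Pxdc1 fell by 1.08 on the log2 scale at 75 Gy and 2 weeks (adjusted p = 0.000294), from 157 to 181 CPM in controls to 59.8 to 98.3 CPM. Lmo7, a protein of cell junctions and the actin cytoskeleton, fell by 0.76 at 75 Gy and 6 weeks (adjusted p = 0.000164), and Gprc5a, an orphan receptor of lung epithelium, fell by 0.51 (adjusted p = 0.000773). The basement membrane genes Col4a3, Col4a4 and Lama3 were also among the 11 that fell.

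The rest of the alveolar epithelium moved differently. Of 12 AT2 genes 5 rose and 1, Abca3, fell at 75 Gy and 6 weeks, with a median log2 fold change of 0.42, and 1 rose and 0 fell at 75 Gy and 2 weeks. Sftpd, a surfactant protein, had a log2 fold change of 1.13 at 75 Gy and 6 weeks (adjusted p = 0.00381). Its mean at 75 Gy was similar at 2 and 6 weeks, 1185 and 1235 CPM, while the mean of the controls was 938 CPM at 2 weeks and 566 CPM at 6 weeks. Of the 12 AT2 genes 10 had a lower value in controls of 6 weeks than of 2 weeks, and 1 of these, Cxcl15, passed the test. Between these controls the median log2 fold change of all genes tested was 0.01, and 1.63% of all genes passed. Of 10 genes of the transitional state 8 rose and 0 fell at 75 Gy and 6 weeks, among them the keratins Krt8 and Krt18, and 4 rose and 0 fell at 75 Gy and 2 weeks. After 65 Gy 5 rose at 6 weeks and 4 at 2 weeks, with 0 falling. Cdkn1a, an inhibitor of the cell cycle and target of p53, rose by 2.41 at 6 weeks and by 2.25 at 2 weeks on the log2 scale at 75 Gy. Cdkn1a and Lgals3 are not limited to epithelium, and Lgals3 is abundant in macrophages. Of 6 genes shared by epithelia, 1 rose and 2 fell at 75 Gy and 6 weeks, and Nkx2-1, a transcription factor of lung epithelium, had a log2 fold change of -0.33 (adjusted p = 0.0411).

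**Figure D4:**
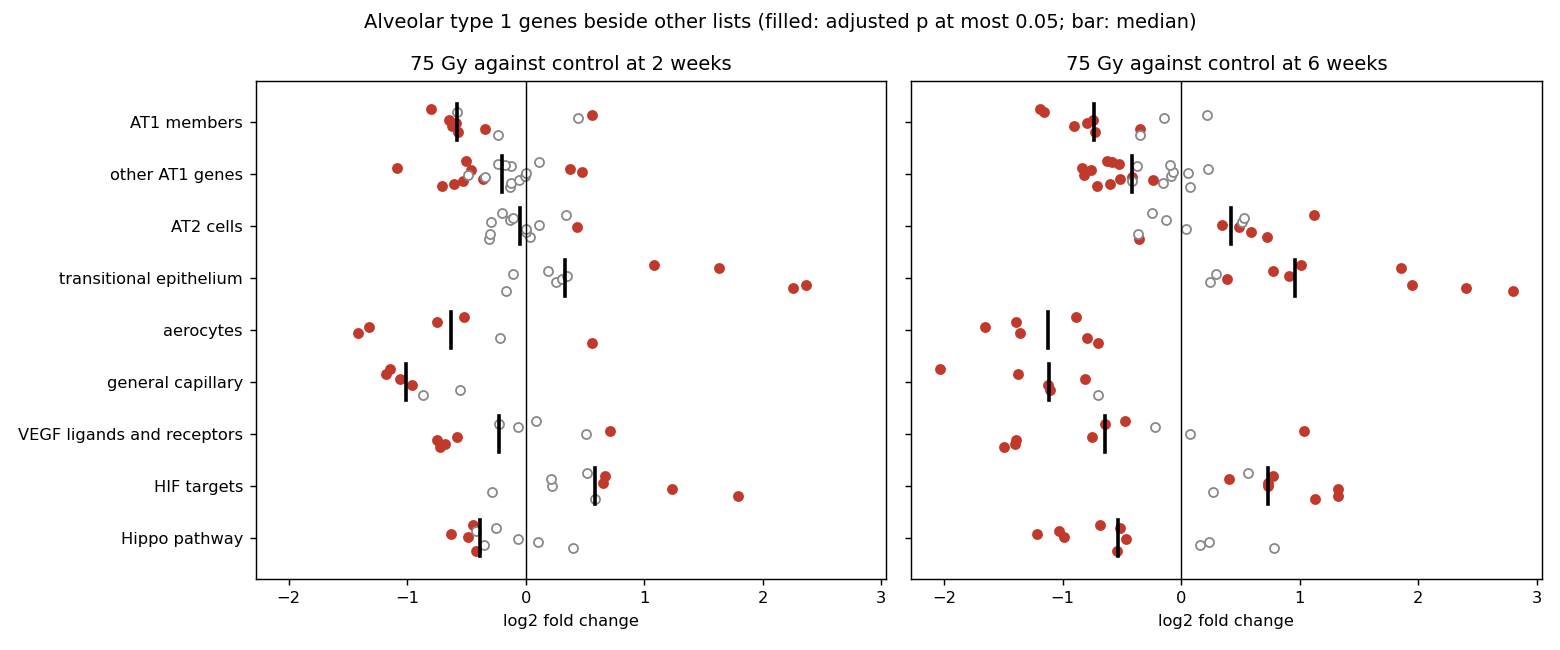
Log2 fold change at 75 Gy against control (horizontal axis) of each gene of the AT1 genes and of 8 other lists, at 2 and 6 weeks. Filled points passed the test, open points did not, and bars are medians of a list. The AT1 genes have a median of -0.58 and -0.73 at 2 and 6 weeks. The medians are lower for aerocytes (-0.63 and -1.12) and the general capillary (-1.01 and -1.11). Genes of the transitional state and HIF targets lie mostly above 0.

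Vegfa signals to endothelial cells through receptors that include Flt1 and Kdr. Of 9 other ligands and receptors of its family, 6 fell and 1 rose at 75 Gy and 6 weeks and 4 fell and 1 rose at 75 Gy and 2 weeks. At 75 Gy and 6 weeks the log2 fold change was -1.49 for Flt1, -1.40 for Kdr and -1.40 for Flt4, the receptor of lymphatic endothelium (adjusted p = 7.79e-06, 5.52e-05 and 2.55e-05). The gene that rose was Pgf, a ligand of Flt1. Kdr also marks aerocytes, the capillary cells that lie against AT1 cells. All 6 aerocyte genes fell at 75 Gy and 6 weeks, with a summed level of 1325 to 1360 CPM in controls and 530 to 702 CPM at 75 Gy, and 5 of 6 genes of the general capillary fell, Ptprb with a log2 fold change of -2.04 (adjusted p = 3.59e-05). Vegfa is also a target of HIF. Of 9 other HIF targets 7 rose and 0 fell at 75 Gy and 6 weeks and 4 rose and 0 fell at 75 Gy and 2 weeks. Ldha, lactate dehydrogenase A, rose by 0.74 (adjusted p = 0.000880) and Ankrd37 by 1.32 (adjusted p = 0.00543) at 6 weeks.

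The Hippo pathway, whose cofactors Yap1 and Wwtr1 act with TEAD factors and are known for their role in making AT1 cells, was represented by 10 genes. Of these 7 fell and 0 rose at 75 Gy and 6 weeks, with log2 fold changes of -1.21 for Tead1 and -0.99 for Lats2. At 2 weeks 4 fell and 0 rose after 75 Gy and 0 passed after 65 Gy, and at 6 weeks 4 fell and 0 rose after 65 Gy. Of 6 other A-kinase anchoring proteins all fell at 75 Gy and 6 weeks, with log2 fold changes of -1.11 for Akap2 and -0.98 for Akap12, and 3 fell at 2 weeks. Of 5 relatives of Clic5 and Rtkn2, 2 fell and 1 rose at each time at 75 Gy, and at 6 weeks the log2 fold change was -0.80 for Clic4 and 0.48 for Clic1. Of 3 relatives of Emp2, Pmp22 fell by 0.57 and Emp3 rose by 0.83 at 75 Gy and 6 weeks. Of 4 other aquaporins, Aqp1, the water channel of capillary endothelium, fell by 0.98 and Aqp4 rose by 0.72 at 75 Gy and 6 weeks.

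The ligands and partners of Ager, Igfbp2 and Pdpn gave mixed counts. Of 6 ligands of the receptor that Ager encodes, 3 rose and 0 fell at 75 Gy and 6 weeks, S100a4 by 2.07 and S100b by 2.03 on the log2 scale, and 2 rose and 2 fell at 2 weeks, where S100a8, a neutrophil gene, had a log2 fold change of -2.06. Of 8 genes of the insulin-like growth factor axis that were tested (of 9 listed, Igfbp1 being at 0 in some libraries), 2 rose and 3 fell at 75 Gy and 6 weeks. Igf1 rose by 2.52 on the log2 scale (adjusted p = 2.63e-08), and the log2 fold change was -1.27 for its receptor Igf1r and -1.16 for the binding protein Igfbp3. Of 6 partners of podoplanin 1 rose and 3 fell, with a log2 fold change of -0.50 for Rdx, which links membrane proteins to actin.

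Markers of other cells of the lung were counted in the same libraries. Of the macrophage genes 4 of 6 rose at 75 Gy and 6 weeks, with a sum of 165 to 204 CPM in controls and 794 to 907 CPM at 75 Gy. Of the lymphatic genes 5 of 6 fell, of the airway genes 2 of 6 fell and 0 rose, of the fibroblast genes 2 of 6 rose and 1 fell, and of the T and NK cell genes 1 of 6 rose and 1 fell. Of 6 neutrophil genes 1 fell, of 6 cardiac muscle genes 1 rose, and of 5 mesothelial genes 0 passed, so that these counts were near or below the share of all genes. In other comparisons more of them fell. At 2 weeks 4 of the 6 neutrophil genes fell after 75 Gy (10.5% of all genes) and after 65 Gy (4.29%). At 65 Gy and 6 weeks 3 of the 5 mesothelial genes fell (7.01% of all genes). No defining marker of these lists was at 0. Their part in the levels of the AT1 genes was not tested. In library 3134 the macrophage sum was the highest of all libraries at 1676 CPM, and the general capillary sum, at 922 CPM, was the lowest.

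The genes whose profile over the 17 libraries was nearest to the mean of the 10 AT1 genes were Qk, Gpr146, Csgalnact1, Ocln, Rab12, Mxra7, Bcl2l2, Mfng, Msrb3 and Sema3e. The measure was the root mean square difference of log2 CPM after subtraction of each gene's mean, and it was 0.066 for Qk and 0.090 for Sema3e, against a median of 0.417 over all genes tested. A gene that did not vary over the libraries would lie at 0.257. Among the members, which are themselves part of the mean profile, Akap5 lay nearest to it (0.117) and Pdpn (0.439) and Igfbp2 (0.355) farthest. Clic5 was the nearest of all genes to Emp2, at 0.060, and for Clic5 itself only Stard13, at 0.052, was nearer than Emp2. The nearest gene was Cyth3 for Vegfa (0.058), Dguok for Aqp5 (0.069), Nectin3 for Akap5 (0.084), Wnt3a for Ager (0.089), Ptprg for Rtkn2 (0.091), Cfl1 for Pdpn (0.091), Cav1 for Hopx (0.103) and Chst12 for Igfbp2 (0.237). All these genes share the libraries and their scaling, and the values are a description.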

How the data were processed

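RNA was measured by stranded mRNA sequencing in 17 lung libraries. The authors trimmed the reads, aligned them to GRCm38.p6 with HISAT2, estimated expression with StringTie and deposited whole-number read counts per gene, not normalized. The step to counts, the use of strand in counting and whether each library came from a separate mouse are not given in the sources used here, so p-values measure the spread between libraries. Antisense genes overlap Hopx and Rtkn2. Counts per library lay between 46764569 and 66797879. One further 65 Gy library of 6 weeks was not analysed here.

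All libraries were fitted together in edgeR 4.0.16 (R 4.3.3) with 1 coefficient per group, TMM factors and filterByExpr (minimum count 10, total 15), and compared by the quasi-likelihood F test. On simulated data with 200 genes changed 4-fold, 187 were recovered with 10 false calls at 75 Gy and 2 weeks (21608 genes) and 195 with 12 at 75 Gy and 6 weeks (21636 genes). The changes of the AT1 genes were all smaller than 4-fold, and recovery of changes of their size was not simulated. Intervals are at 95%. Levels per length used the exons of GENCODE on GRCm38. Alternatives were RLE and upper-quartile factors, a filter of only 1 count in any library, a filter of 10 counts in all libraries, DESeq2 1.42.0, only the groups compared, the DEG limit and leaving out each library. The ratios to Ager and their alternatives were added after the values were seen.

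The 10 genes and the other lists were chosen with earlier results of these data known. Named genes are the 10, at most the 3 members of each other list with the smallest p, and the genes nearest in profile. Abca3, Krt8, Krt18, Col4a3, Col4a4, Lama3 and Pgf were named after their values were seen, and Yap1, Wwtr1 and Igfbp1 are named as background.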

Additional observations from a re-analysis of the deposited data

How the results depend on the processing

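No paired analysis was possible because the library numbers are all different and link nothing between groups. Values of single AT1 genes were set against the main fit under alternatives other than leaving out a library. Over all comparisons 513 values kept their direction and their side of the threshold, 9 newly passed, 17 no longer passed and 1 changed sign. In the comparisons with controls alone, 214 values kept both, 9 newly passed and 17 no longer passed. The number of AT1 genes passing at 75 Gy and 2 weeks was 7 and became 0 when only the groups compared were fitted and 0 with the DEG limit. At 75 Gy and 6 weeks it was 7 and became 2 with the DEG limit. At 65 Gy and 2 weeks it was 4 and became 2 with every gene of at least 1 count, 7 with DESeq2 and 0 with the DEG limit. At 65 Gy and 6 weeks it was 6 and became 3 with upper-quartile factors, 3 with every gene of at least 1 count and 0 with the DEG limit. The number of genes called in all also moved. At 65 Gy and 2 weeks it was 2422 in the main fit, 1976 with every gene of at least 1 count and 3482 with DESeq2. At 65 Gy and 6 weeks it was 3234, 3174 with upper-quartile factors and 2534 with every gene of at least 1 count. The cause of these changes was not tested, except that the DEG limit is stricter by construction. With 1 library left out the counts ranged from 7 to 9, 6 to 8, 0 to 8 and 0 to 6 in that order, and were 0 between doses, between controls and between times. At 65 Gy and 6 weeks leaving out a library leaves 1, which is then assumed to vary like the others.

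No value that passed the test changed sign. With upper-quartile factors the 75 Gy difference between times of Aqp5 was 0.0262. Without 1 library, some values that had not passed changed sign, with these ranges of log2 values. For 75 Gy against control at 2 weeks they were Igfbp2 from -0.0237 to 0.76. For 65 Gy against control at 2 weeks they were Igfbp2 from -0.0479 to 0.30. For 65 Gy against control at 6 weeks they were Pdpn from -0.0411 to 0.37. For 75 Gy against 65 Gy at 2 weeks they were Ager from -0.40 to 3.032e-05, Hopx from -0.28 to 0.23, Aqp5 from -0.0355 to 0.0732, Rtkn2 from -0.25 to 0.16, Akap5 from -0.25 to 0.0537 and Igfbp2 from -0.15 to 0.63. For 75 Gy against 65 Gy at 6 weeks they were Hopx from -0.18 to 0.0734 and Pdpn from -0.15 to 0.26. For control at 6 weeks against control at 2 weeks they were Pdpn from -0.0008895 to 0.0976, Rtkn2 from -0.0681 to 0.22 and Igfbp2 from -0.13 to 0.22. For the difference of the 75 Gy effect between times they were Ager from -0.27 to 0.15, Hopx from -0.34 to 0.18 and Aqp5 from -0.10 to 0.0604. For the difference of the 65 Gy effect between times they were Hopx from -0.19 to 0.0648 and Igfbp2 from -0.022 to 0.33. The lowest count of the 10 genes in any library was 5554, so counting error was small. Groups held 2 or 3 libraries.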
